A study of Mus musculus with 19 samples.

Results

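The proteasome subunits described here are the 35 genes, of 19716 in the deposited table, whose symbols begin with Psma, Psmb, Psmc or Psmd followed by a number, leaving out the immunoproteasome genes Psmb8, Psmb9 and Psmb10. They comprised 7 genes of the alpha ring (Psma1 to Psma7), 7 of the beta ring (Psmb1 to Psmb7), 6 ATPases of the base (Psmc1 to Psmc6) and 3 other subunits of the base (Psmd1, Psmd2 and Psmd4). The lid contributed 8 genes (Psmd3, Psmd6, Psmd7, Psmd8, Psmd11, Psmd12, Psmd13 and Psmd14). A further 3 genes with subunit-style symbols, Psmd5, Psmd9 and Psmd10, encode chaperones that help to assemble the base, and 1 gene, Psmb11, encodes the beta subunit of the thymus form of the particle. RNA had been sequenced from mouse embryonic fibroblasts that the labels give, in every group and the controls too, as a knockout line of Sec24d, whose product is a cargo-binding subunit of the COPII coat that buds vesicles from the endoplasmic reticulum. The groups were 4 libraries from cells given 50 nM scrambled siRNA, 5 given siRNA against Sec24b (the Sec24B knockdown), 5 given 150 nM scrambled siRNA, and 5 given siRNAs against Sec24a, Sec24b and Sec24c together (the triple knockdown). All carried a 48 h label, and the protocol gave 50 nM of SEC24 siRNA without saying whether this was per siRNA. Nothing in the labels says that replicates came from separate cultures; if they did not, a p-value reflects the spread of these libraries alone, which may be technical.

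The proteasome degrades proteins that carry ubiquitin chains. Its core is a stack of alpha and beta rings, with the proteolytic sites inside on the beta subunits encoded by Psmb5, Psmb6 and Psmb7, and it is capped by a regulatory particle whose base unfolds substrates with its ATPases and whose lid removes ubiquitin. In mammalian cells the transcription factor NRF1 (gene Nfe2l1) is made in the membrane of the endoplasmic reticulum, from which it is extracted. When proteasome activity falls, processed NRF1 binds antioxidant response elements near proteasome genes.

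The libraries held 9101855 to 19709672 reads over all genes, recovered from the deposited values, so that 1 read was worth about 1 normalised count. The knockdowns lowered their targets: the log2 fold change of Sec24b was -1.21 after Sec24B knockdown and -1.29 after triple knockdown, in which Sec24a and Sec24c were also lower (-0.76 and -1.79). Sec24d transcripts were counted at 223 to 563 normalised counts in every library, and since the labels do not say which part of the gene was deleted, these counts do not check the knockout. Fibroblast markers were present, with 8 of 9 measured genes above a mean of 20 in each group and summed levels of 402876 to 561656 in the other groups and 317147 to 344218 in the triple knockdown. The summed levels of epithelial, leukocyte and endothelial markers were at most 155.6 in any library. Libraries are bulk RNA, so fewer cells of a type and less RNA per cell cannot be told apart. Among the triple knockdown libraries replicate 1 stood apart, with the highest level of 32 of the 34 expressed members, and the counts of genes called in that group, and the fold changes of the members that passed there, are therefore also given without it.

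Promoter windows (250 bases before and 50 after the annotated start of transcription) were found for 29 of the 35 members in RefSeq on GRCm38.p6; Psmb1, Psmb2, Psmb7, Psmc3, Psmd3 and Psmd7 had none in the table used. The windows of 6 members that changed with a knockdown are shown, the first 3 from beta-ring genes higher in the triple knockdown and the last 3 from genes lower in the Sec24B knockdown. They lie at chr3:94886909-94887208 (Psmb4, minus strand), chr14:54617946-54618245 (Psmb5, minus strand), chr11:70525107-70525406 (Psmb6, plus strand), chr2:34870913-34871212 (Psmd5, minus strand), chr11:80428365-80428664 (Psmd11, plus strand) and chr11:107479278-107479577 (Psmd12, plus strand). Each is written 5′ to 3′ on the gene's strand, and capitals mark matches to the antioxidant response element core TGACNNNGC on either strand.
Psmb4: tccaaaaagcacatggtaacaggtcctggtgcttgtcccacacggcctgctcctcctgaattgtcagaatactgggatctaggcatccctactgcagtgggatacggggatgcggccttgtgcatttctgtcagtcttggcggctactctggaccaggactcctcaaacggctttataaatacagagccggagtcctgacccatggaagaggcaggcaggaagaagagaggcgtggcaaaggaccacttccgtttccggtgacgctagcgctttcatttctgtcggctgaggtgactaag
Psmb5: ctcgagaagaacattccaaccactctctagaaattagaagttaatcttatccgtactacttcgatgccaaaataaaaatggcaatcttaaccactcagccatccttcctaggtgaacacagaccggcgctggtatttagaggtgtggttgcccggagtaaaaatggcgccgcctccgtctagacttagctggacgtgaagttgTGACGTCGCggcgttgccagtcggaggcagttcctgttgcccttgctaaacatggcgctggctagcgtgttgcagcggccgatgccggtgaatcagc
Psmb6: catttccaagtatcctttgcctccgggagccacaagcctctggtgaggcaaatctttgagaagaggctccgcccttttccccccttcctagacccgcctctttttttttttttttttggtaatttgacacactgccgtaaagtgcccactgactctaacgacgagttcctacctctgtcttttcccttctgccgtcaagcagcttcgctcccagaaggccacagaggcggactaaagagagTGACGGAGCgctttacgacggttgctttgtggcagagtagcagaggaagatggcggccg
Psmd5: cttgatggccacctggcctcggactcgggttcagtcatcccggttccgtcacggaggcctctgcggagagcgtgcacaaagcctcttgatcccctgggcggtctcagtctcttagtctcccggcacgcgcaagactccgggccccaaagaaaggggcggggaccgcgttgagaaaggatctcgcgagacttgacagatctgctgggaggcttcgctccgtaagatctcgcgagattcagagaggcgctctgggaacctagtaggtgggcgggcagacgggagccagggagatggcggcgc
Psmd11: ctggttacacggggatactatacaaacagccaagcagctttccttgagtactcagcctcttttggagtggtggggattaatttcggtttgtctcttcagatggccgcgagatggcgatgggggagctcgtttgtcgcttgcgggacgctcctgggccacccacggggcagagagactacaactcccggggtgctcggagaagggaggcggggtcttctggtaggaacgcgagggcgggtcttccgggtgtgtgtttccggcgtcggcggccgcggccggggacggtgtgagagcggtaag
Psmd12: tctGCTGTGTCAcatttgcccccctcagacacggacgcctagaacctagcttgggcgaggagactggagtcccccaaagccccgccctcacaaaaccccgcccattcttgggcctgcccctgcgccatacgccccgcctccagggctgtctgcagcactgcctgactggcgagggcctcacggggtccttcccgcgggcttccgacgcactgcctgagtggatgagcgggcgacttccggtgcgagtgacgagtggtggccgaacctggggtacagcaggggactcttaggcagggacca

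The core motif was present in the windows of 5 of the 29 matched members (17.2%), namely Psmb5, Psmb6, Psmc6, Psmd9 and Psmd12, against 14.0% of the 27025 genes in the RefSeq table. The matches began at position -47 in Psmb5, -9 in Psmb6 and -247 in Psmd12, counted from the first transcribed base. Of these 3 genes, Psmb5 and Psmb6 were higher in the triple knockdown and Psmd12 was lower in the Sec24B knockdown. The calls on Psmb5 and Psmb6 were lost without triple knockdown replicate 1, as described below. Psmc6 and Psmd9, which also held the motif, did not pass in the main fit of either knockdown. The windows of Psmb4, Psmd5 and Psmd11 held no match. The CCAAT box was searched on both strands as CCAAT or ATTGG. It was present for 12 of the 29 matched members (41.4%) and 41.1% of all genes, and none of the 6 windows shown held it. Psmc2 and Psmd1, which also passed in the triple knockdown, are not among the windows shown. A window of Psmc2 held a CCAAT box at position -28, and that of Psmd1 held neither motif. A match is a string of letters in the window, and binding was not measured.

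With 50 nM scrambled siRNA the members differed widely in transcript level per kilobase of exon. The highest levels were those of the beta-ring genes Psmb6, at 3359 ± 378 normalised counts per kilobase (SD, n = 4), and Psmb3, at 3062 ± 227, which overlapped within their spread. The base ATPase gene Psmc2 (2325 ± 36.7), the alpha-ring gene Psma7 (2257 ± 140) and the lid genes Psmd7 (2225 ± 99.2) and Psmd3 (2119 ± 206) came next and did not differ beyond their spread. The 3 base assembly chaperones were lowest among the expressed members: Psmd5 stood at 271 ± 15.3 and Psmd9 at 258 ± 23.1, which overlapped, while Psmd10 stood below both at 132 ± 6.24. Highest and lowest differed 25.4-fold over these 34 genes. Exonic length joined the exons of all basic annotated transcripts of a gene, and how far this shaped the levels was not tested. Medians per kilobase were 1965 for the beta ring, 1904 for the base ATPases, 1254 for the alpha ring, 1048 for the other base subunits, 1036 for the lid and 258 for the assembly chaperones. Psmb11 was counted at 0 to 6.64 normalised counts per library, a few reads at most. The members' exonic lengths ran from 766 bases (Psmb3) to 4397 bases (Psmd5) over the 34 expressed genes, and these genes lie on 15 chromosomes.

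**Figure D1:**
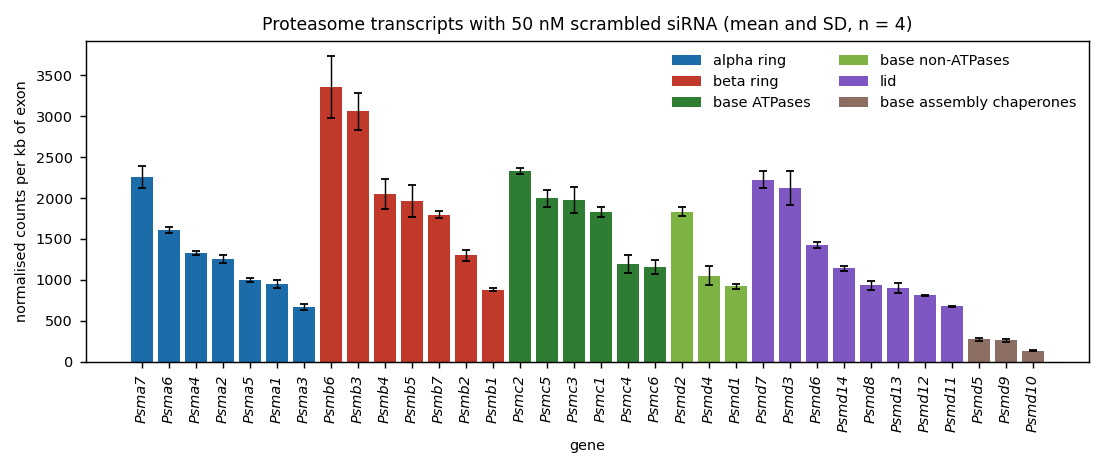
Transcript level of the 34 expressed proteasome genes in normalised counts per kilobase of exon (vertical axis) with 50 nM scrambled siRNA, ordered within each role; bars are means and error bars SDs of 4 libraries. The bars run from 3359 for Psmb6 to 132 for Psmd10, and the assembly chaperones are the lowest.

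The levels of the members added up to 0.544% of all counts with 50 nM scrambled siRNA and 0.540% in the Sec24B knockdown. With 150 nM scrambled siRNA the share was 0.534%, and in the triple knockdown it was 0.584%. Shares by library ran from 0.5448% to 0.693% in the triple knockdown and from 0.517% to 0.5440% in its control, without overlap. As sums and not shares, the triple knockdown libraries without replicate 1 had a mean of 79397 normalised counts. Their control had 79116 ± 1416 (SD, n = 5). Lid transcripts together stood at 19513, 19332, 19468 and 20880 normalised counts in the 4 libraries with 50 nM scrambled siRNA and at 18751, 17351, 17688, 17572 and 17581 in the 5 libraries of the Sec24B knockdown, without overlap. Beta-ring transcripts together stood at 15246, 15587, 14436, 15830 and 15898 with 150 nM scrambled siRNA and at 26731, 16391, 16674, 16476 and 20418 in the triple knockdown. These groups did not overlap either, and the highest sum was that of replicate 1. Of the other sums in the Sec24B knockdown, that of the assembly chaperones also lay below its control (1668 to 1910 against 1932 to 2188). The alpha-ring, beta-ring, base ATPase and other base sums overlapped their control there. In the triple knockdown the sums of all roles but the beta ring overlapped their control. The sums are descriptions and were not tested.

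Setting the Sec24B knockdown beside its 50 nM control asked which transcripts differ when SEC24B is lowered in cells labelled as Sec24d knockout. In this comparison 3 of the 35 members fell and 0 rose. Psmd5, an assembly chaperone of the base, fell by 18.7%, the lid gene Psmd11 fell by 14.1% and the lid gene Psmd12 fell by 13.7%. The test was limma on log2 of the normalised count plus 1, and a gene passed at a Benjamini-Hochberg adjusted p below 0.05 over all 19635 genes tested. The members' share of falls, 8.57%, lay near that of all genes, 7.08%; for rises it was 0% against 7.53%. At an unadjusted p below 0.05, 9 of 35 members differed, against 5224 of all 19635 genes. On the recovered reads edgeR and DESeq2 also called 0 rises. The median log2 fold change of the members was -0.06 (0.01 over all genes), and 9 of 35 were above 0. The number above 0 was 15 without 50 nM replicate 4 and 14 under upper-quartile scaling. Under that scaling the members' median was -0.03, and the median over all genes moved up as well, to 0.03. Without Sec24B replicate 1 the number was 4 and the members' median -0.10 (0.01 over all genes). Without 50 nM replicate 4 and Sec24B replicate 1, which held more reads of short transcripts than their groups, 4 members fell and 0 rose, with Psmc6 (-0.29, adjusted p = 0.0306) added.

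Psmd5 (ENSMUSG00000026869, GRCm38 chr2:34849734-34874968, minus strand) stood at 1261, 1143, 1129 and 1241 normalised counts with 50 nM scrambled siRNA and at 1030, 980, 927, 996 and 916 in the Sec24B knockdown. Every knockdown library was below every control library, and the log2 fold change was -0.30 ± 0.06 (SE; limma adjusted p = 0.00113). In the triple knockdown the gene stood at 1302, 1116, 1201, 1161 and 1229 against 1210, 1096, 1117, 1213 and 1203 in its control, and the groups were intermixed, at 0.04 ± 0.06 on the log2 scale (limma adjusted p = 0.636).

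Psmd11 (ENSMUSG00000017428, GRCm38 chr11:80428615-80473248, plus strand), a scaffold subunit of the lid, stood at 2033, 1980, 1973 and 2022 normalised counts in the 50 nM control and at 1819, 1674, 1704, 1653 and 1755 in the Sec24B knockdown. The groups did not overlap, and the log2 fold change was -0.22 ± 0.05 (limma adjusted p = 0.00376). Psmd12 (ENSMUSG00000020720, GRCm38 chr11:107479484-107504362, plus strand), another scaffold subunit of the lid, stood at 2159, 2162, 2143 and 2121 in the control and at 1955, 1809, 1822, 1872 and 1806 in the knockdown. Here too the groups were apart, and the log2 fold change was -0.21 ± 0.06 with a limma adjusted p of 0.0107. The remaining 6 lid genes had log2 fold changes below 0 and did not pass. They included Psmd7, part of the dimer that holds the lid's deubiquitinase, at -0.17 ± 0.06 (limma adjusted p = 0.0799), and Psmd13 at -0.05 ± 0.09 (limma adjusted p = 0.804). The calls on Psmd5, Psmd11 and Psmd12 held in each of 22 alternative settings.

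The catalytic beta-ring genes did not pass in the Sec24B knockdown. Psmb5, whose product cuts after hydrophobic residues, stood at 1776, 1657, 1618 and 2014 normalised counts in the control and at 1756, 1495, 1663, 1653 and 1644 in the knockdown, which overlapped (log2 fold change -0.10 ± 0.10, limma adjusted p = 0.586). Psmb6, whose product cuts after acidic residues, stood at 2539, 2477, 2577 and 3128 against 3401, 2822, 3153, 2749 and 2762 (0.15 ± 0.12, limma adjusted p = 0.471). Psmb7, whose product cuts after basic residues, stood at 2160, 2045, 2061 and 2070 against 2802, 2458, 2414, 2465 and 2243. For Psmb7 every knockdown library lay above the controls, yet the gene did not pass (0.25 ± 0.10, limma adjusted p = 0.119). Standard errors here come from the spread shared by all 4 groups, the triple knockdown included. Leaving aside Psmb11, the 95% intervals of all members lay between -0.42 and 0.46 on the log2 scale.

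**Figure D2:**
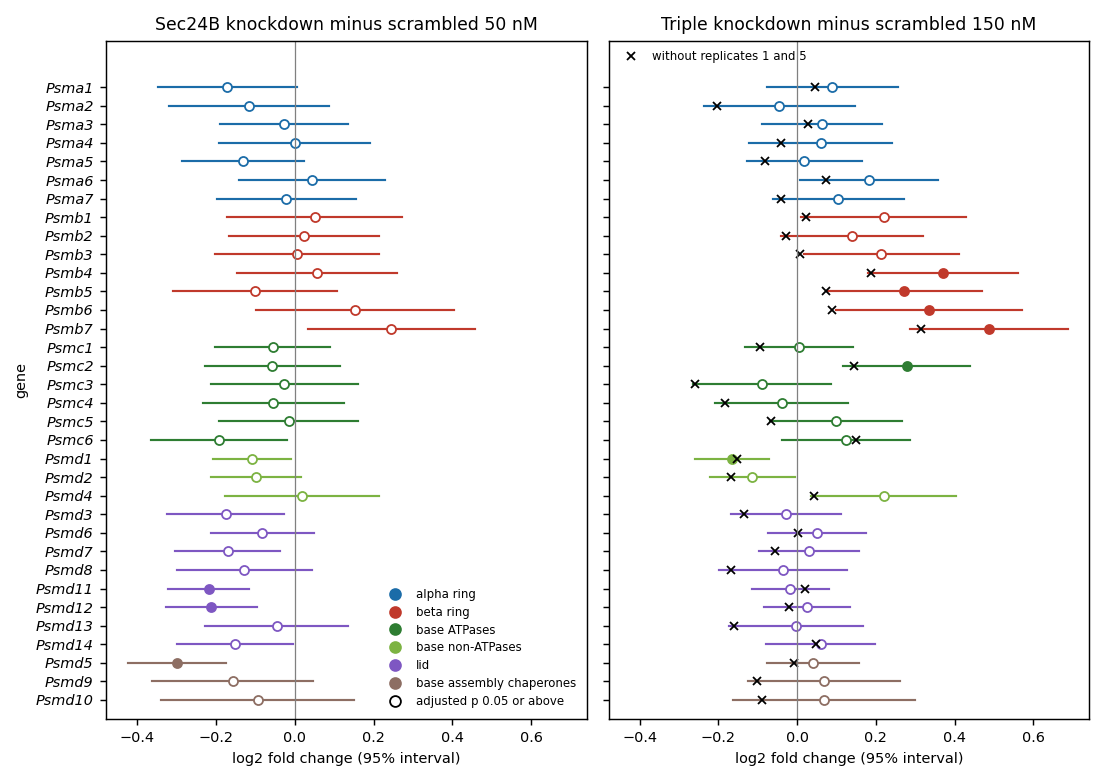
Log2 fold change (horizontal axis) with its 95% interval for the 34 expressed proteasome genes, for the Sec24B knockdown (left) and the triple knockdown (right), each against its own scrambled control; filled points passed at an adjusted p below 0.05, and crosses give the triple knockdown without replicates 1 and 5. On the left the filled points are Psmd5, Psmd11 and Psmd12, all below 0, and on the right 4 of 7 beta-ring genes and Psmc2 lie above 0 and Psmd1 below.

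Setting the triple knockdown beside its 150 nM control asked the same question when SEC24A, SEC24B and SEC24C were lowered together. Of the 35 members, 5 rose and 1 fell. Those that rose were 4 of the 7 beta-ring genes (Psmb4, Psmb5, Psmb6 and Psmb7) and the base ATPase gene Psmc2, by 20.7% to 40.1%; the base scaffold gene Psmd1 fell by 10.8%. Over all genes tested 16.8% rose and 17.2% fell, against 14.3% and 2.86% of the members. The median log2 fold change of the members was 0.06 (0.01 over all genes), and 26 of 35 were above 0. None of the 7 alpha-ring genes, 8 lid genes or 3 assembly chaperones passed. At an unadjusted p below 0.05, 1 alpha-ring gene, 0 lid genes and 0 assembly chaperones differed. Among all members 11 of 35 did, against 8258 of all 19635 genes. Without replicate 1 the counts were 3 rises and 4 falls (Psmd1 and also Psma2, Psmc3 and Psmd2), with a median of -0.01 and 15 of 35 above 0, and without replicates 1 and 5 they were 3 and 6 with a median of -0.03. The beta-ring rises that remained in both were Psmb4 and Psmb7. Leaving out triple knockdown replicate 5, or replicate 1 or 3 of the control, also left 3 rises. Leaving out triple knockdown replicate 2 gave 8 rises, and leaving out control replicate 1 gave 2 falls.

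Psmb7 (ENSMUSG00000026750, GRCm38 chr2:38588036-38644087, minus strand) had the largest rise of any member in this comparison. It stood at 2012, 1921, 1804, 2024 and 2145 normalised counts in the control and at 4015, 2361, 2469, 2548 and 2745 in the triple knockdown. The groups did not overlap, also without replicate 1, and the log2 fold change was 0.49 ± 0.10 (limma adjusted p = 0.000319), or 0.35 ± 0.06 without replicate 1.

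Psmb4 (ENSMUSG00000005779, GRCm38 chr3:94884093-94886961, minus strand), a beta-ring subunit without a proteolytic site, stood at 2476, 2524, 2254, 2514 and 2459 in the control and at 4342, 2870, 2885, 2599 and 3364 in the knockdown. Every knockdown library was above every control, and the log2 fold change was 0.37 ± 0.09 at a limma adjusted p of 0.00288, or 0.26 ± 0.07 without replicate 1. Psmb6 (ENSMUSG00000018286, GRCm38 chr11:70525367-70527858, plus strand) stood at 2525, 2947, 2604, 2934 and 2899 in the control and at 5068, 2925, 2926, 3000 and 4036 in the knockdown. Replicates 1 and 5 were far above the controls and the other 3 lay within or just above them; the log2 fold change was 0.33 ± 0.11 (limma adjusted p = 0.0258).

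Psmb5 (ENSMUSG00000022193, GRCm38 chr14:54614119-54618022, minus strand) stood at 1778, 1952, 1743, 1756 and 1863 in the control and at 2978, 1993, 1957, 1795 and 2440 in the knockdown, which overlapped in 1 library (log2 fold change 0.27 ± 0.10, limma adjusted p = 0.0292). The calls on Psmb5 and Psmb6 rested on the highest libraries. Without replicate 1 the log2 fold changes were 0.16 (adjusted p = 0.0897) and 0.20 (adjusted p = 0.0766), and without replicate 5 they were 0.23 (adjusted p = 0.0800) and 0.28 (adjusted p = 0.0763). They were also lost without control replicate 1 or 3, and that on Psmb5 without control replicate 4.

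Psmc2 (ENSMUSG00000028932, GRCm38 chr5:21785283-21803787, plus strand), an ATPase of the base, stood at 3679, 3769, 3574, 3728 and 3810 in the control and at 6060, 4028, 4121, 4147 and 4420 in the triple knockdown. The groups were apart, and the log2 fold change was 0.28 ± 0.08 (limma adjusted p = 0.00737), or 0.17 ± 0.05 without replicate 1. The other 5 base ATPases had log2 fold changes from -0.09 (Psmc3) to 0.12 (Psmc6) and did not pass.

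Psmd1 (ENSMUSG00000026229, GRCm38 chr1:86064387-86139151, plus strand), the scaffold of the base, moved the other way. It stood at 2861, 2801, 2875, 3075 and 2979 in the control and at 2549, 2534, 2663, 2682 and 2576 in the triple knockdown, every knockdown library below every control, and the log2 fold change was -0.17 ± 0.05 at a limma adjusted p of 0.00565. Without replicate 1 the value was -0.16 ± 0.04. The calls on Psmb4, Psmb7, Psmc2 and Psmd1 held in each of 23 alternative settings.

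The member that differed least was the lid gene Psmd13 (ENSMUSG00000025487). It stood at 1876, 1884, 1775, 1882 and 1746 in the control and at 2378, 1607, 1660, 1648 and 1949 in the triple knockdown. The knockdown libraries lay on both sides of the controls, and the log2 fold change was -0.00 ± 0.08 (95% interval -0.17 to 0.17), or -0.10 ± 0.06 without replicate 1. Without replicates 1 and 5 it was -0.16 ± 0.06 (adjusted p = 0.0382), and Psma2, Psmc3, Psmc4 and Psmd2 also fell there, by 0.17 to 0.26 on the log2 scale.

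**Figure D3:**
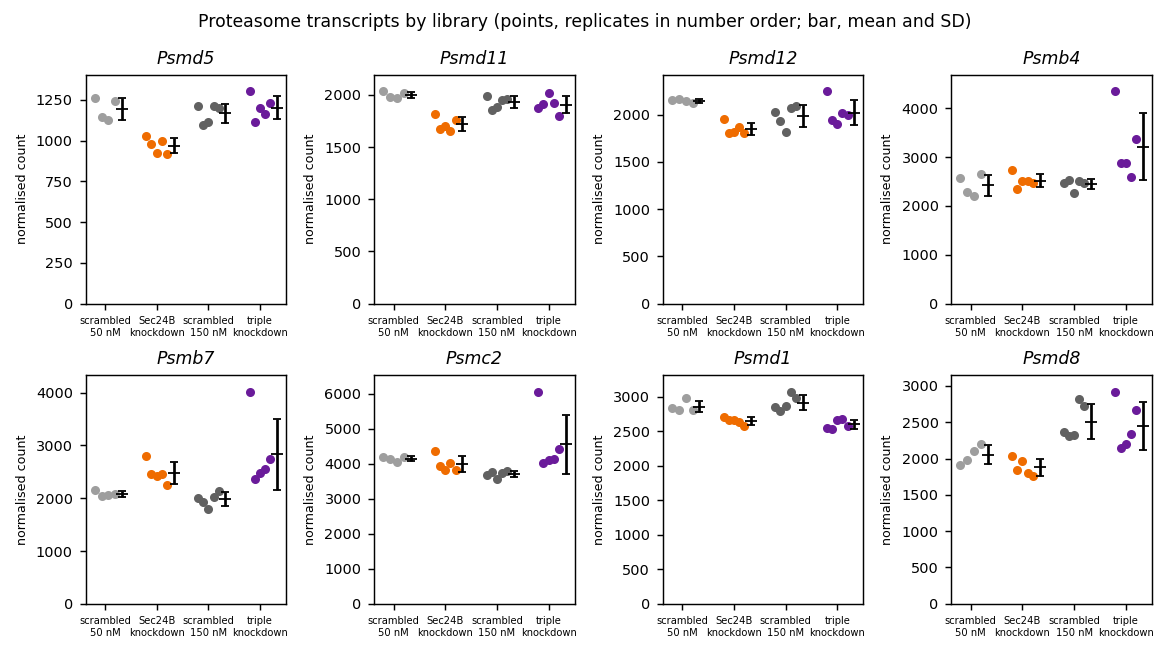
Normalised counts (vertical axes, from 0) of 8 proteasome genes that passed in a comparison, in every library; points are replicates within a group and bars the mean and SD. In the Sec24B knockdown Psmd5, Psmd11 and Psmd12 lie below the 50 nM control, and in the triple knockdown replicate 1 is the highest point for Psmb4, Psmb7 and Psmc2, at 4342, 4015 and 6060.

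Triple knockdown replicate 1 differed from the rest of its group by transcript length across all genes. Against the mean of the other 4 libraries, the median log2 difference over 12768 genes with a mean of at least 20 was 0.35 in the class of shortest exonic length of 4 equal classes, 0.11 and -0.07 in the next classes and -0.27 in the longest. The 34 expressed proteasome genes had a median difference of 0.44 in this library. Of all 35 members 32 are shorter than the median gene of 3117 bases, and the shorter members differed more (median 0.50) than the longer ones (0.35). Replicate 5 had the same order at smaller size, from 0.10 in the shortest class to -0.10 in the longest. In replicates 1 and 5 the siRNA targets Sec24a (299 and 403 normalised counts) and Sec24b (369 and 436) were also lowest, against 572 to 583 and 531 to 606 in the other 3 libraries of the group. For the remaining siRNA target, Sec24c, values by library are not given here. Whether these low counts go with transcript length was not tested. Sec24B replicate 1 (0.12 to -0.14) and 50 nM replicate 4 (0.11 to -0.11) had the same order by length. The former held the highest level of 31 of the 34 members within its group. Whether this length pattern has a part in the calls on the short beta-ring genes was not tested; Psmb7 and Psmb4 were called without replicates 1 and 5 as well, at 0.31 ± 0.06 and 0.19 ± 0.06.

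**Figure D4:**
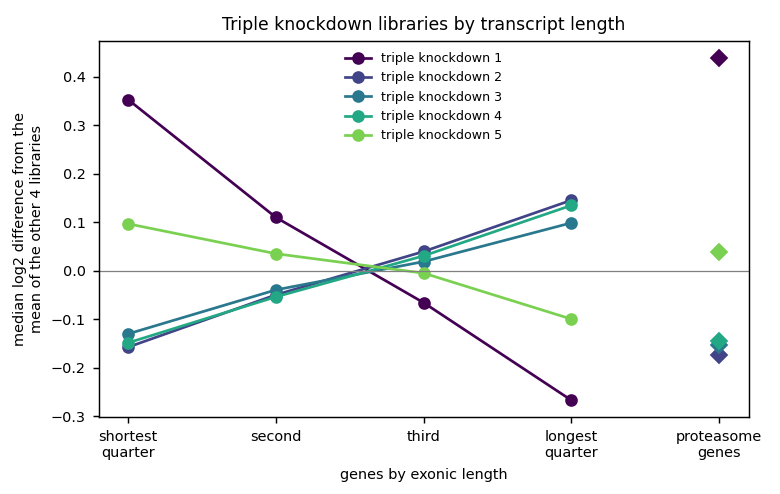
Median log2 difference (vertical axis) of each triple knockdown library from the mean of the other 4, for genes in 4 equal classes of exonic length (circles) and for the 34 expressed proteasome genes (diamonds). The line of replicate 1 falls from 0.35 to -0.27, and its proteasome genes lie at 0.44, above those of every other library.

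Raising scrambled siRNA from 50 to 150 nM changed 1 of 35 members. Psmd8, a lid gene (ENSMUSG00000030591, GRCm38 chr7:29174188-29180701, minus strand), rose from 1916, 1975, 2109 and 2204 normalised counts at 50 nM to 2367, 2306, 2322, 2817 and 2722 at 150 nM, without overlap. Its log2 fold change was 0.29 ± 0.08 (limma adjusted p = 0.0313). Over all genes 4.75% rose and 4.10% fell, and of the members 2.86% rose and 0 fell. At an unadjusted p below 0.05, 3 of 35 members differed in either direction, against 4522 of all 19635 genes. EdgeR and DESeq2 also called 0 falls. The call was lost (adjusted p = 0.0592 to 0.123) when 50 nM replicate 1, 2 or 3, or 150 nM replicate 4 or 5, was left out. Psmb5, Psmb6, Psmb7 and Psmd13 did not pass, with log2 fold changes of 0.05 ± 0.10, 0.06 ± 0.12, -0.07 ± 0.10 and 0.03 ± 0.09. Psmd13 stood at 1762, 1678, 1754 and 1972 at 50 nM, and the other values by library are those given above for the control groups.

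The effects of the triple and the Sec24B knockdown, each against its own control, were also compared directly, and 4 of 35 members (11.4%) had a higher effect in the triple knockdown and 0 a lower one. Over all genes the shares were 7.44% and 8.38%. At an unadjusted p below 0.05, 10 of 35 members differed, against 5537 of all 19635 genes. EdgeR and DESeq2 called 0 lower effects as well. The difference was 0.34 ± 0.08 for Psmd5 (limma adjusted p = 0.00545), 0.24 ± 0.08 for Psmd12 (limma adjusted p = 0.0356), 0.34 ± 0.11 for Psmc2 (limma adjusted p = 0.0467) and 0.20 ± 0.07 for Psmd11 (limma adjusted p = 0.0485). For the first, the second and the last of these the Sec24B effect was the one away from 0, and for Psmc2 it was the triple knockdown effect. The call on Psmd5 held in each of 31 alternative settings. The count fell to 1 without 50 nM replicate 1, 2 or 3, Sec24B replicate 2, 3 or 5, or 150 nM replicate 2 or 3, and to 2 without Sec24B replicate 4 or 150 nM replicate 4 or 5. The median difference was 0.15 (-0.01 over all genes), and 0.025 without triple knockdown replicates 1 and 5. The catalytic genes did not pass: the differences were 0.37 ± 0.14 for Psmb5 (limma adjusted p = 0.0708), 0.18 ± 0.17 for Psmb6 (0.528) and 0.24 ± 0.14 for Psmb7 (0.278), and Psmd13 stood at 0.04 ± 0.12 (0.863).

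The authors' deposited table, with its own adjusted p at the same threshold, called 0 members higher and 5 lower in the Sec24B knockdown: Psmd1, Psmd5, Psmd7, Psmd11 and Psmd12. By the authors' deposited table, 6 were higher in the triple knockdown (Psmb4, Psmb5, Psmb6, Psmb7, Psmc2 and Psmd4) and 2 lower (Psmd1 and Psmd2). Between the scrambled doses the authors' deposited table called Psmd8 higher and no member lower.

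Outside the constitutive particle, the transcripts of the immunoproteasome subunits, which replace the products of Psmb5, Psmb6 and Psmb7 after interferon, were led by Psmb9. Over all genes tested 7.53% rose and 7.08% fell in the Sec24B knockdown, and 16.8% rose and 17.2% fell in the triple knockdown. The counts of this list and those that follow stand beside these shares, and no list was tested as a set. In the Sec24B knockdown 2 of 3 immunoproteasome genes rose and 0 fell. Psmb9 stood at 54.3, 49.3, 48.7 and 74.4 normalised counts in the control and at 199, 238, 232, 198 and 186 in the knockdown, without overlap (log2 fold change 1.89 ± 0.20, limma adjusted p = 5.13e-07). Psmb10 rose by 0.52 ± 0.17 (limma adjusted p = 0.0465), a call lost in 13 of 22 alternative settings, and Psmb8 was counted at a mean of 10.4 and 15.1. In the triple knockdown 1 of 3 rose: Psmb9 stood at 24.0, 24.6, 24.2, 23.7 and 31.3 in the control and at 92.3, 48.9, 34.9, 38.3 and 46.6 in the knockdown (0.92 ± 0.19, limma adjusted p = 0.000501), or 0.69 ± 0.15 without replicate 1. From 50 to 150 nM scrambled siRNA, Psmb9 fell by 1.10 ± 0.20 and Psmb10 fell by 0.61 ± 0.17 on the log2 scale (limma adjusted p = 0.000823 and 0.0283), so the controls of the knockdowns differed. The effect on Psmb9 was smaller in the triple than in the Sec24B knockdown, by a difference of -0.97 ± 0.28 (limma adjusted p = 0.0173).

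Of 5 genes of the activators and the inhibitor, 1 rose and 1 fell in the Sec24B knockdown (7.53% and 7.08% over all genes). In the triple knockdown 0 of the 5 passed, and 3 differed at an unadjusted p below 0.05. Without triple knockdown replicate 1, 1 of them rose there, the activator gene Psme4 (0.23 ± 0.08, limma adjusted p = 0.0236). In the Sec24B knockdown Psme1, of the interferon-inducible activator, rose by 0.43 ± 0.12 (limma adjusted p = 0.0133). Psme3, of the nuclear activator, fell there by 0.18 ± 0.05 (limma adjusted p = 0.0156). Without 50 nM replicate 4 and Sec24B replicate 1, 1 of the 5 rose and 0 fell, so this call was lost. The difference between the knockdown effects on Psme3 was 0.30 ± 0.07 (limma adjusted p = 0.00444). Of 5 chaperones that assemble the core, 3 rose in the triple knockdown and 0 fell (16.8% and 17.2% over all genes). Psmg1, which pairs with Psmg2 to build the alpha ring, stood at 376, 428, 334, 368 and 335 normalised counts in the control and at 737, 451, 452, 444 and 519 in the triple knockdown, without overlap. Its log2 fold change was 0.48 ± 0.11 (limma adjusted p = 0.00160), that of Psmg2 was 0.37 ± 0.09 (0.00166) and that of Psmg4 was 0.33 ± 0.11 (0.0205). Without replicate 1 Psmg1 and Psmg2 still passed (0.34 and 0.28) and Psmg4 did not (0.22, adjusted p = 0.0688), while Pomp, which completes the core, fell by 0.20 there. None of these 5 passed in the Sec24B knockdown, and 0 differed at an unadjusted p below 0.05.

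The list of other subunits and associated proteins held 10 genes in the table. In the Sec24B knockdown 4 of them fell and 0 rose, led by Zfand2a, an arsenite-inducible proteasome-associated protein, which stood at 664, 631, 690 and 751 normalised counts in the control and at 477, 526, 481, 473 and 470 in the knockdown. The groups did not overlap (log2 fold change -0.49 ± 0.07, limma adjusted p = 2.16e-05). The others were the ubiquitin receptor Adrm1 (-0.26 ± 0.08), the thioredoxin-like Txnl1 (-0.25 ± 0.07) and the deubiquitinase Usp14 (-0.24 ± 0.08), with limma adjusted p of 0.0224, 0.0235 and 0.0381. In the triple knockdown 3 rose and 0 fell: the small lid subunit Sem1 (0.53 ± 0.11, limma adjusted p = 0.000508), Akirin2, which brings proteasomes into the nucleus (0.26 ± 0.07, 0.00941), and the adaptor Ecpas (0.22 ± 0.08, 0.0400). Without replicate 1 there were 4 rises. The shares over all genes were 7.53% higher and 7.08% lower in the Sec24B knockdown, and 16.8% higher and 17.2% lower in the triple knockdown. Between the scrambled doses Zfand2a rose by 0.25 ± 0.07 (limma adjusted p = 0.0261).

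The NRF1 route differed between the knockdowns in the factor itself. Nfe2l1 stood at 4765, 4971, 5076, 4609 and 4800 normalised counts with 150 nM scrambled siRNA and at 7642, 6655, 6447, 6541 and 6745 in the triple knockdown. The groups were far apart, and the log2 fold change was 0.49 ± 0.05 at a limma adjusted p of 7.88e-08, or 0.45 ± 0.05 without replicate 1. Mafg, a small MAF partner of NRF1, stood at 1526, 1523, 1628, 1467 and 1549 in that control and at 1942, 2053, 2045, 2081 and 2162 in the triple knockdown, also without overlap (0.42 ± 0.05, limma adjusted p = 3.81e-07). In the Sec24B knockdown the 2 genes did not pass (0.09 and -0.11), and the effects differed by 0.39 ± 0.08 for Nfe2l1 and 0.53 ± 0.07 for Mafg (limma adjusted p = 0.000745 and 1.36e-05).

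Over the 10 genes of that list, 4 rose and 2 fell in the triple knockdown, with Nfe2l2, the stress factor related to NRF1, at 0.20 ± 0.04 (limma adjusted p = 0.000979). Without replicate 1 there were also 4 rises and 2 falls. With all libraries 16.8% of all genes rose and 17.2% fell in the triple knockdown. In the Sec24B knockdown 2 of the 10 rose and 4 fell, against 7.53% and 7.08% of all genes. The largest changes there were a fall of the small MAF gene Maff (-0.74 ± 0.14, limma adjusted p = 0.000889) and a rise of Ngly1, which deglycosylates NRF1 (0.41 ± 0.07, limma adjusted p = 0.000358), followed by a fall of Nploc4, a cofactor of the extraction ATPase (-0.24 ± 0.05, limma adjusted p = 0.00161). Without 50 nM replicate 4 and Sec24B replicate 1 there were 1 rise and 4 falls in that knockdown. From 50 to 150 nM scrambled siRNA 3 of the 10 rose and 1 fell (4.75% and 4.1% over all genes). The rises were Maff at 1.06 ± 0.14 (limma adjusted p = 2.28e-05), Mafk at 0.38 ± 0.08 (0.00277) and Mafg at 0.20 ± 0.05 (0.0207).

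Among 5 shuttle factors, which carry ubiquitinated proteins to the particle, 3 fell and 1 rose in the Sec24B knockdown (7.08% and 7.53% over all genes). Ubqln1 stood at 2627, 2753, 2667 and 2771 normalised counts in the control and at 1934, 2150, 2095, 2147 and 2260 in the knockdown, with no overlap (-0.35 ± 0.05, limma adjusted p = 3.87e-05). Rad23b (-0.23 ± 0.06) and Ubqln4 (-0.21 ± 0.06) also fell, with limma adjusted p of 0.00742 and 0.0246. Without 50 nM replicate 4 and Sec24B replicate 1 only 2 of the 5 fell and 0 rose. In the triple knockdown 1 rose (Nub1, 0.21 ± 0.06, limma adjusted p = 0.0123) and 1 fell (Ubqln2, -0.24 ± 0.06, 0.00483), and without replicate 1 there were again 1 rise and 1 fall. Of 5 genes that supply or activate ubiquitin, 0 passed in the Sec24B knockdown, where 1 differed at an unadjusted p below 0.05, and 3 rose and 1 fell in the triple knockdown. The ubiquitin fusion gene Rps27a rose by 0.46 ± 0.12 (limma adjusted p = 0.00344), the polyubiquitin gene Ubb rose by 0.29 ± 0.09 (0.0158), and Uba1, the ubiquitin-activating enzyme, fell by 0.17 ± 0.05 (0.00914). Without replicate 1 there were 2 rises and 1 fall in this list. Without replicates 1 and 5 there were 1 rise and 1 fall, and the list's median log2 fold change was 0.11 (main 0.28). Which of the rises remained is not given here. With all libraries 16.8% of all genes rose and 17.2% fell in the triple knockdown.

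**Figure D5:**
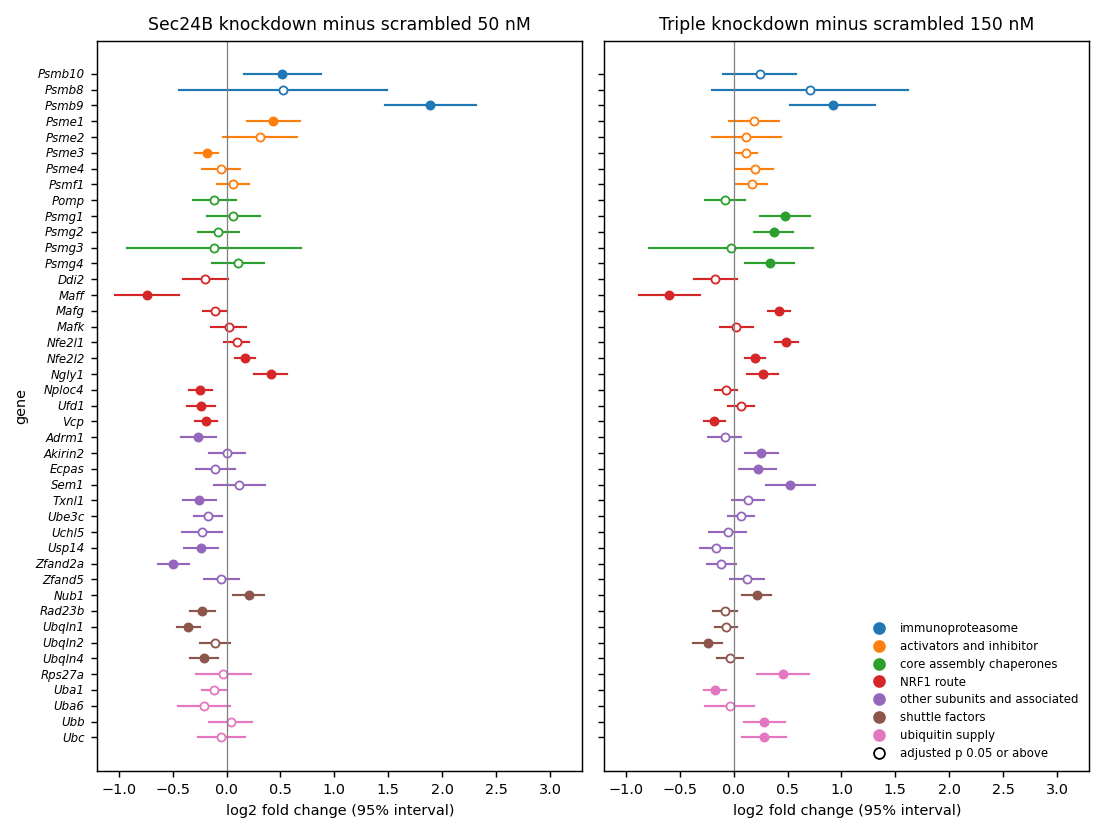
Log2 fold change (horizontal axis) with its 95% interval for listed genes of the proteasome pathway outside the constitutive subunits, coloured by list, in the Sec24B knockdown (left) and the triple knockdown (right), each against its own scrambled control; filled points passed at an adjusted p below 0.05. Psmb9 has the largest value in both panels (1.89 and 0.92), and Nfe2l1 and Mafg are filled on the right only, at 0.49 and 0.42.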

How the data were processed

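RNA of 19 libraries of mouse embryonic fibroblasts labelled as Sec24d knockout was extracted with TRIzol, per the labels' protocols, which do not state strand or how multiply mapped reads were counted, so reads of overlapping genes and near-identical copies may be mixed. Per the submitters' processing notes, Trimmomatic 0.27, FastQC 0.10.1, TopHat2 2.0.8 and Partek 6.6 were used, and the builds named are the human hg19 and GRCh37. The table's IDs, however, are those of mouse genes, and GENCODE M21 (GRCm38) holds 19666 of 19716, 99.0% with the same coordinates, among them all 35 members. The read counter and the test used by the authors are not given in the sources used here.

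The authors' deposited signal is a normalised count, the reads of a gene over a single factor for its library; dividing by the smallest step gave whole reads for 100% of values within 0.0055. The authors' deposited log2 fold changes and p-value columns were used for comparison only. The 4 groups were fitted in 1 model by limma (3.58.1, under R 4.3.3), using its intensity trend and log2(normalised count + 1). Genes needed 4 or more libraries at 1 or above, which left 19635 to test and removed 81; all 35 members passed. Tests were two-sided, adjusted by Benjamini-Hochberg over all genes tested. Levels per kilobase use GENCODE exonic length, the union of exons over a gene's basic transcripts, which can exceed the length of the transcripts expressed. The proteasome members, the gene lists and the tests were chosen with earlier results of these data known.

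Genes with values in each library were the passing members of a comparison (up to 8), Psmb5, Psmb6, Psmb7, the member least changed in the triple knockdown, and, of each list, up to 3 passing genes; for the list genes not all libraries are printed. Psma8, Paaf1 and some other listed genes were not analysed here, and listed genes that are not named enter the counts only. Alternatives were the pseudocount, filter, scaling, libraries in the fit, replicate block, pooled control, left-out libraries, and edgeR 4.0.16, DESeq2 1.42.0 and limma-voom on the recovered reads. Counting error covers only part of the uncertainty, since reads carry no molecular identifiers.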

Additional observations from a re-analysis of the deposited data

Results flagged for a closer look

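Within groups, 10 of 72 sets of libraries held a value far from the rest of its group by Dixon's criterion at 95%, which chance gives in about 1 in 20 groups (3.6 of 72). In triple knockdown replicate 1 the level of Psmb7 was 4015 against 2361 to 2745 in the other libraries, and that of Psmc2 was 6060 against 4028 to 4420. In the same library the alpha-ring sum was 18310 against 12423 to 13010, and the base ATPase sum 23919 against 16968 to 18948. In Sec24B replicate 1 the alpha-ring sum was 15136 against 12609 to 13335, the base ATPase sum 18904 against 16506 to 17125, and the lid sum 18751 against 17351 to 17688. With 50 nM scrambled siRNA, replicate 4 held a Psmb6 level of 3128 against 2477 to 2577 and a lid sum of 20880 against 19332 to 19513. With 150 nM, replicate 3 held the lowest Psmb4 level, 2254 against 2459 to 2524.

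For 13 of the proteasome and pathway genes, leaving aside the siRNA targets and cell type markers, the effects of the triple and the Sec24B knockdown differed at a limma adjusted p below 0.05 for the difference itself. These genes were the 35 members, 10 of the NRF1 route, 10 other subunits and associated proteins and 3 immunoproteasome genes. The activators and inhibitor, core assembly chaperones, shuttle factors and ubiquitin supply added 5 each. Over all genes tested 7.44% had a higher effect in the triple knockdown and 8.38% a lower one. Values are the triple effect minus the Sec24B effect on the log2 scale. Among the members they were 0.34 for Psmd5, 0.34 for Psmc2, 0.24 for Psmd12 and 0.20 for Psmd11. In the NRF1 route they were 0.53 for Mafg, 0.39 for Nfe2l1 and 0.30 for Ufd1. Among the assembly and associated genes they were 0.45 for Psmg2, 0.38 for Txnl1, 0.38 for Zfand2a and 0.30 for Psme3. The shuttle factor Ubqln1 (0.29) also differed, and Psmb9 had the only negative difference of the 13, at -0.97.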

How the results depend on the processing

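Of the counts of members called, the following moved by over 1.5 times. With only the groups compared in the fit, the Sec24B knockdown had 1 rise and 6 falls (main 0 and 3), the triple knockdown 3 rises (main 5) and the scrambled doses 4 falls (main 0). The calls over all genes moved too, to 2112 rises and 2033 falls of 18614 in the Sec24B knockdown (main 1478 and 1390 of 19635). In the triple knockdown 2679 of 18182 genes rose (main 3307), and between the doses 1296 of 18238 fell (main 805). Against the 9 scrambled libraries pooled, the Sec24B knockdown had 1 rise and 8 falls, and over all genes 2326 rises and 2144 falls. DESeq2 gave 2 falls in the triple knockdown (main 1), and upper-quartile scaling gave 1 higher effect in the difference of knockdowns (main 4). Over all genes these settings gave 3326 falls (main 3373) and 1328 higher effects (main 1461). Leaving out 1 library at a time gave 3 to 8 rises and 1 to 4 falls in the triple knockdown, 0 to 1 rises between the scrambled doses and 1 to 5 higher effects in the difference. Leaving out triple knockdown replicates 1 and 5, chosen after seeing the data, gave 3 rises and 6 falls, and 1 lower effect and a median of 0.025 (main 0.15) in the difference. Over all genes 2900 rose and 3135 fell in the triple knockdown in that setting (main 3307 and 3373). The left-out pair of 50 nM replicate 4 and Sec24B replicate 1 was also chosen after seeing the data. The causes were not tested. Over the single genes, 1685 of 1846 alternative values kept direction and call, 140 lost the call, 6 gained it, 15 moved and 0 reversed; 42 of 63 calls held in all alternatives run.

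Same-numbered libraries of the groups did not deviate together (r from -0.21 to 0.23 over 13 pairs, 1 of which correlated best with their own number), so the number was not treated as pairing. A replicate block left 3 falls in the Sec24B knockdown and 5 rises and 1 fall in the triple knockdown, removed the call on Psmd8 between the doses (0 rises), and gave 3 higher effects in the difference. In the main fit, with 4 or 5 libraries a group, member changes of a few percent cannot be shown. The median standard error of a member in the Sec24B knockdown was 0.09 on the log2 scale in that fit. This error uses the spread shared by all 4 groups, and so also carries that of the triple knockdown libraries. With only the groups compared in the fit, 1 member rose and 6 fell in the Sec24B knockdown (main 0 and 3). Psmb11, Psmb8 and Psmg3 rest on few reads.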
